A study of Mus musculus with 12 samples.

Results

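Endothelial genes were followed in cultured mouse stromal cells from 3 tissues. Of the 9 genes, Kdr, Pecam1, Cdh5, Vwf, Tek and Tie1 are classical endothelial genes, and Emcn, Flt1 and Esm1 were chosen by their normalized signals, which differ between the tissues on these same arrays. All probes that the platform annotation assigns to the 9 symbols were taken, which gave 15 probe entries of the 45281 on the array, for 9 of 18889 named genes. The arrays were single-colour Illumina bead arrays, which report 1 brightness per probe. They carried total RNA of mesenchymal stem cells (MSC) from bone marrow, and of heart-derived and kidney-derived cells labelled as similar to MSC, with 4 samples per tissue. The series text calls the 4 samples biological replicates without naming animals. Every p-value reflects the spread between samples of a tissue, pooled over the 3 tissues and moderated across probes. That spread may be partly technical. No group has a labelled treatment or genetic change, and the labels state no strain, age, passage or medium.

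Endothelial cells line blood vessels. Vascular endothelial growth factor (VEGF) drives their growth through the receptor kinase that Kdr encodes, while the product of Flt1 binds VEGF tightly, signals weakly and, in a soluble form, acts as a trap for it. A second pair of receptor kinases, encoded by Tek and Tie1, responds to the angiopoietins and sets vessel stability. Pecam1 and Cdh5 encode adhesion proteins of the contacts between endothelial cells, Vwf encodes the clotting factor that these cells store, Emcn encodes a sialomucin of capillary and venous endothelium, and Esm1 encodes a secreted proteoglycan (endocan) made by sprouting vessel tips.

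The windows around the transcription start are shown for Emcn, Flt1 and Esm1, whose probes carry the differences described below. Each runs from 250 bases before to 50 bases after the start and is given 5′ to 3′ on the gene's strand, from RefSeq on build GRCm38.p6. They lie at chr3:137340828-137341127 (+ strand) for Emcn, chr5:147725962-147726261 (− strand) for Flt1 and chr13:113209409-113209708 (+ strand) for Esm1. Capitals mark GGAA on either strand (read as GGAA or TTCC), the core letters bound by ETS factors, a family with many endothelial targets.
Emcn: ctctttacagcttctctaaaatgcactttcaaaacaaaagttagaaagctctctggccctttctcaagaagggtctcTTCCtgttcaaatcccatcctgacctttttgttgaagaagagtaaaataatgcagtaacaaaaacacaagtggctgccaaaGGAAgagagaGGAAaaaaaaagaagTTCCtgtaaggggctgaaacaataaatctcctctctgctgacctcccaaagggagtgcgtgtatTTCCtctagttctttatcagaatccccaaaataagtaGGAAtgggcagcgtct
Flt1: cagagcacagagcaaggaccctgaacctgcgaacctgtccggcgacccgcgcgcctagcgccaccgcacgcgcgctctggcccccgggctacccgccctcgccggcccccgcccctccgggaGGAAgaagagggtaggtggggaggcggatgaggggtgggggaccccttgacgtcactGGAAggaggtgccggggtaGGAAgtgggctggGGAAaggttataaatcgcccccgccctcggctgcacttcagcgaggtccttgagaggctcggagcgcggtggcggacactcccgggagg
Esm1: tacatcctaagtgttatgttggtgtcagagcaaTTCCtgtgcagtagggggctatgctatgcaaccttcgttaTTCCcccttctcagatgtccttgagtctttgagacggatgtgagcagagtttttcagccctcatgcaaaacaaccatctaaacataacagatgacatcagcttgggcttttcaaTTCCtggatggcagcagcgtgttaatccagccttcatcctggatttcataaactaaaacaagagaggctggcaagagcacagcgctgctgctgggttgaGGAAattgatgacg
The Emcn window holds 6 such cores and the Flt1 and Esm1 windows 4 each. A core of these letters occurs in 96% of the 32851 windows of the same length, with a median of 3, so its presence does not set these genes apart. The hypoxia response core ACGTG was found in none of the 3 windows and in 19.6% of all, and the GATA letters AGATAA in none of the 3 and in 11.2% of all, both strands searched. The SOX letters AACAAT occurred once, in the Emcn window, outside the capitals, and in 10.7% of all windows.

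Mean raw brightness per array ran from 753.7 to 1065.8, lowest on bone marrow replicate 1, and 18635 to 19792 entries per array were detected, meaning a detection fraction over 0.95 against the array's own background. The dimmest detected entry lay between 140.6 and 163.9 in raw brightness, depending on the array. Raw values were background-corrected, quantile-normalized and put on a log2 scale, on which the dimmest detected entry lay between 5.53 and 5.69. Of the 13 stromal genes checked, 12 were detected on all 4 arrays in each tissue, with Pdgfra, Thy1, Cd44 and Col1a1 among them, while Lum was detected on 1 heart array. Differences below are log2 differences ± SE from a limma fit to the 20649 entries detected on at least 4 arrays, except where stated. Precision is limited by having 4 arrays per tissue. Because the cultures were measured in bulk, fewer expressing cells and less RNA per cell cannot be told apart.

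Most of the 9 genes were at background. Kdr and Vwf were detected on 0 of 12 arrays by any of their probes, Tie1 on 1, Cdh5 on 2 and Pecam1 on 3. Emcn was detected on the 4 kidney arrays alone, Esm1 on 10 arrays, Tek on 5 and Flt1 on 12. A detection on at least 4 of the 12 arrays was required for a test, and 4 of the 15 entries met it, 1 each of Emcn, Flt1, Esm1 and Tek. By gene, 4 of the 9 could thus be tested, against 10797 of 18889 named genes on the array. Emcn, Flt1 and Esm1 were chosen by their signals on these arrays, so the 2 shares cannot be compared. Of the 11 entries of the genes not so chosen, 1 was kept, that of Tek. The label of expressed endothelial genes was not borne out by the probes of the other 5. Whether those probes can read their transcripts was not tested. For the 4 the label holds in part, because Emcn was undetected in bone marrow and heart and Tek in kidney.

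**Figure D1:**
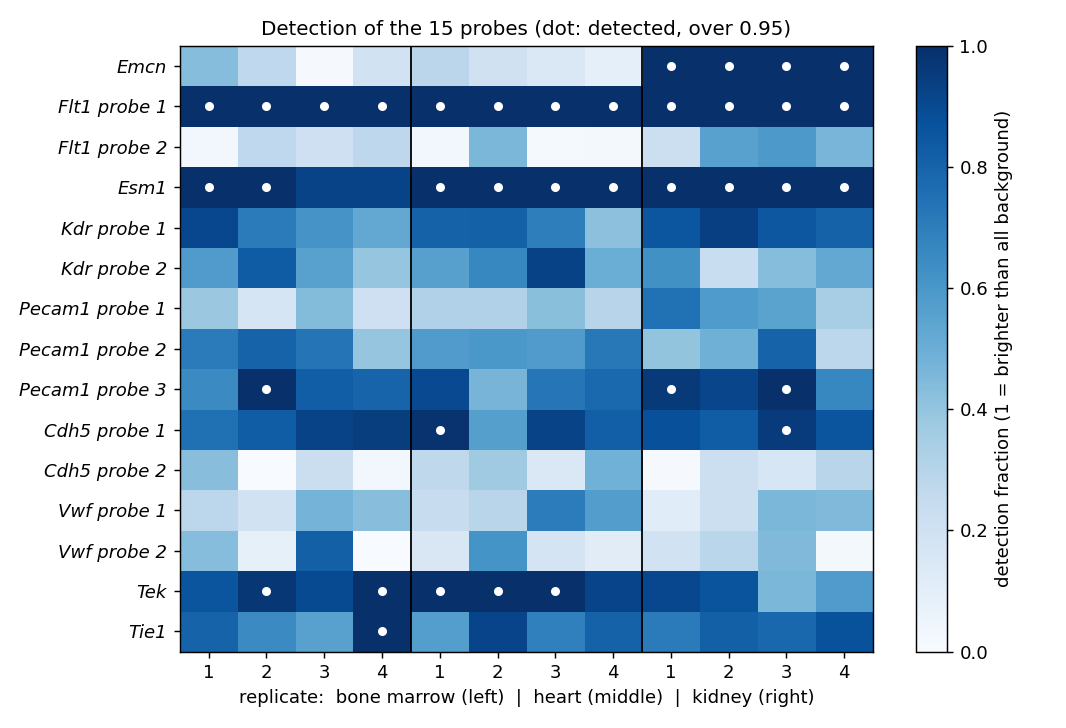
Detection fraction of the 15 probe entries (rows) on the 12 arrays (columns, by tissue and replicate), where a dot marks a fraction over 0.95. Full rows of dots occur for 1 Flt1 entry alone, Emcn has dots on the 4 kidney arrays, and Kdr and Vwf have none.

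The receptor gene Kdr stayed at background on both of its probes. Its raw brightness was 115.6 to 159.1 on the probe designed on AK054510 and 113.2 to 152.9 on the one designed on NM_010612, in all 3 tissues. Both ranges lie at or below the level at which entries begin to be detected.

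The secreted and junctional endothelial genes were equally dim. Vwf gave 103.2 to 130.8 and 98.8 to 133.1 on its 2 probes. Cdh5 gave 126.7 to 174.8 on 1 probe, which was detected on heart replicate 1 and kidney replicate 3, and 89.2 to 122.8 on the other, which was detected on none. At a stricter detection fraction of 0.99 Cdh5 was detected on 0 arrays.

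Pecam1 has 3 probes, of which those designed on AK037551 and NM_008816 were detected on 0 arrays. The third, designed on NM_001032378, reached 171.4 on bone marrow replicate 2, 159.6 on kidney replicate 1 and 173.7 on kidney replicate 3, which were its 3 detected arrays, and it ranged from 122.2 to 155.2 elsewhere. No tissue had a detected Pecam1 signal on all 4 of its arrays.

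Tie1, the partner receptor of Tek, was detected on bone marrow replicate 4 alone, at a raw brightness of 201.8. The other 11 arrays read between 119.9 and 155.5. That single bone marrow array stood apart from the other 3 of its group, which gave 119.9, 126.2 and 129.8.

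Without the detection filter the 10 untested entries of Kdr, Pecam1, Cdh5, Vwf and Tie1 could be entered in the limma fit. None passed an adjusted p of 0.05 in any of the 3 comparisons (smallest adjusted p = 0.169, largest difference 0.40 in size), and 1 had an unadjusted p under 0.05, a Pecam1 probe in kidney minus bone marrow (0.17 ± 0.08). In that fit 23.5% of all 45281 entries passed in heart minus bone marrow, 16.9% in kidney minus bone marrow and 19.2% in kidney minus heart.

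Tek, which encodes the angiopoietin receptor TIE2, was dim but detected in part. Raw brightness was 132.7, 154.8, 139.8 and 176 on the bone marrow arrays (2 of 4 detected), 185, 191.3, 197.3 and 157.1 on the heart arrays (3 of 4) and 151.1, 148.9, 120.9 and 129.1 on the kidney arrays (0 of 4). The normalized means were 6.07 ± 0.38 in heart, 5.65 ± 0.33 in bone marrow and 5.11 ± 0.32 in kidney (SD, n = 4).

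In heart cells Tek was higher than in kidney cells. The kidney minus heart difference was -0.97 ± 0.22 (limma, adjusted p = 0.00132), or at least 1.39-fold, with the kidney arrays set at the detection level. Such lower bounds hold on the background-corrected scale, and without that correction the fold of a dim probe can be smaller than the bound, and is then given beside it (1.3-fold for Tek). All 4 heart arrays lay above all 4 kidney arrays. In this fit 43.8% of the 20649 tested probes passed in kidney minus heart, so a call alone is common. Tek would have missed the detection filter without the heart arrays, where it was brightest. Its p-values from the filtered fit therefore serve as description. With no detection filter, the kidney minus heart difference was -0.97 ± 0.23 (limma, adjusted p = 0.00208). Over the alternatives the adjusted p ran from 0.000295 to 0.00734, and the difference was -0.39 without background correction.

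The neighbours in the order heart, bone marrow, kidney did not separate for Tek. Heart minus bone marrow was 0.43 ± 0.22 (adjusted p = 0.124) and kidney minus bone marrow -0.54 ± 0.22 (adjusted p = 0.061), and the arrays overlapped in both. As lower bounds these were at least 1.22-fold (1.1-fold without background correction) and at least 1.04-fold, so the second rests mostly on signal below the detection level. The shares of probes that passed were 51.6% and 39.2%, in that order. Without heart replicate 4, the 1 undetected heart array, the first became 0.61 ± 0.22 (adjusted p = 0.0284) and the second -0.54 ± 0.20 (adjusted p = 0.0428). Kidney minus bone marrow also passed without bone marrow replicate 1 (-0.65 ± 0.24, adjusted p = 0.0321) and without kidney replicate 1 (-0.66 ± 0.24, adjusted p = 0.0377).

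**Figure D2:**
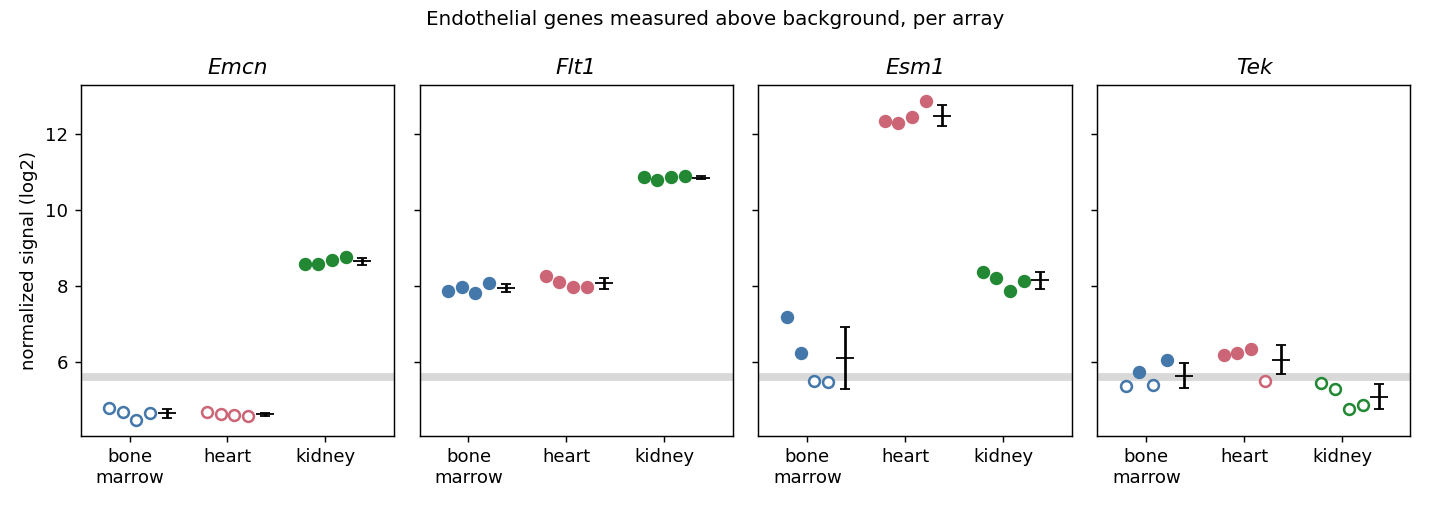
Normalized log2 signal of the 4 entries tested, 1 panel per gene, with 1 point per array, filled where detected and open where not, and the mean ± SD (n = 4) beside each tissue. The grey band spans the dimmest detected entry per array (5.53 to 5.69); Emcn and Flt1 are highest in kidney, Esm1 in heart, and Tek lies around the band.

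The values of Emcn, Flt1 and Esm1 are given as a description with no test, because they were chosen for differing. Emcn was measured above background in kidney cells alone. Raw brightness was 509.4, 515.1, 569.2 and 588.7 on the kidney arrays, against 114.4, 111.5, 93.8 and 114.8 in bone marrow and 118.5, 115.9, 104.5 and 99.7 in heart. The kidney arrays lay far above the other 8, none of which detected it. Normalized means were 8.65 ± 0.09 in kidney, 4.66 ± 0.12 in bone marrow and 4.64 ± 0.05 in heart (SD, n = 4). The log2 differences from bone marrow and heart were 3.99 ± 0.15 and 4.02 ± 0.15, and with the dim arrays set at the detection level at least 7.96-fold and at least 8.3-fold. Without background correction they were 2.22 ± 0.08 and 2.23 ± 0.08, both 4.7-fold, so the size depends on that step. Bone marrow and heart cannot be ordered for this gene.

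Flt1 was the 1 gene of the 9 detected on all arrays. The entry that carried signal read 257.3, 343.8, 302.8 and 382.7 in bone marrow, 416.3, 384.1, 380.5 and 404.4 in heart and 2114.3, 1962.5, 2221 and 2130.4 in kidney. Kidney arrays formed a tight group well above both others, while bone marrow and heart overlapped after normalization. Normalized means were 7.95 ± 0.11, 8.08 ± 0.14 and 10.85 ± 0.05 (SD, n = 4). Kidney exceeded bone marrow by 2.90 ± 0.10, a 7.45-fold difference, and heart by 2.77 ± 0.10, or 6.83-fold, whereas heart and bone marrow differed by 0.13 ± 0.10.

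A second Flt1 entry, listed under the same probe identifier and designed per the annotation on NM_010228, was at background throughout. It read 95.8 to 117.5 in bone marrow, 92.1 to 126.8 in heart and 108.6 to 127.6 in kidney. The authors' processed table holds 1 value for this identifier, and it matches the bright entry. Which part of the transcript either entry reads, and so whether the membrane or the soluble form is measured, is not given in the sources used here.

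Esm1 separated all 3 tissues and was brightest in heart cells. Raw brightness was 5292.8, 4918.7, 5990.6 and 8500.7 in heart, 464.2, 424.5, 372.1 and 417.8 in kidney, and 200.2, 174.9, 142.9 and 153.1 in bone marrow, where replicates 1 and 2 were detected and replicates 3 and 4 were not. The groups did not overlap. Normalized means were 12.48 ± 0.27 in heart, 8.15 ± 0.22 in kidney and 6.11 ± 0.81 in bone marrow (SD, n = 4). Kidney minus heart was -4.32 ± 0.26, a 20-fold difference, and kidney minus bone marrow 2.04 ± 0.26, or 4.12-fold. The difference of heart from bone marrow, 82.5-fold on this scale, rests on a bone marrow mean close to background.

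Bone marrow replicate 1 had the highest Esm1 value of its group, 7.20 against 5.48 to 6.25 on the other 3 arrays. Without it kidney minus bone marrow became 2.42 and heart minus bone marrow 6.74, the highest values among the 12 fits that leave out 1 array. Without background correction these differences were 1.11 and 4.99.

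For each of these genes the 3 most similar profiles were looked up among 10796 other named genes, by the root-mean-square difference of the log2 values over 12 arrays after each gene was centred on its own mean. Nearest to Emcn were H2-M1, an MHC class I gene (0.188), Ptprz1, a receptor phosphatase gene best known from neural cells (0.199), and 3110040M04Rik (0.284). All 3 were detected on the 4 kidney arrays and on 0 others, as Emcn was. Nearest to Flt1 were the actin-severing gene Scin (0.161), the potassium channel subunit gene Kcnmb1 (0.208) and the Hox gene Hoxd10 (0.208), which were undetected in bone marrow and heart, where Flt1 itself was detected. Nearest to Esm1, at a larger distance, were the protease gene Klk8 (0.556), the G protein subunit gene Gnai1 (0.712) and the sulfotransferase gene Sult4a1 (0.754).

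Transcripts of the VEGF receptor ligands were detected in all 3 populations, though Pgf on 2 bone marrow and 3 heart arrays only. Vegfa, the main ligand of the Kdr and Flt1 products, was detected on all 12 arrays, at normalized means of 12.43 ± 0.09 in bone marrow, 12.31 ± 0.09 in kidney and 11.74 ± 0.11 in heart (SD, n = 4). It fell by 0.69 from bone marrow to heart (SE 0.08, adjusted p = 1.49e-07) and was 0.57 ± 0.08 higher in kidney than in heart (adjusted p = 2.88e-06), and its second tested probe gave the same calls. Kidney and bone marrow differed by -0.12 ± 0.08 (adjusted p = 0.229). Vegfb, which binds the Flt1 product and not that of Kdr, fell from bone marrow to heart (-0.44 ± 0.08, adjusted p = 0.000114) and further to kidney (-0.38 ± 0.08 against heart, adjusted p = 0.000685).

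The ligands of the lymphatic receptor were each highest in another tissue. Vegfc, whose main receptor is the product of Flt4, read 1529.6 to 1615.9 on the kidney arrays, 703.6 to 750.2 in heart and 470.1 to 545 in bone marrow. It rose by 1.52 ± 0.13 in kidney over bone marrow (adjusted p = 4.26e-09) and by 1.17 ± 0.13 over heart (adjusted p = 1.54e-07). Heart minus bone marrow was 0.35 ± 0.13 (adjusted p = 0.0261), a call lost under 7 alternatives. Vegfd was highest in heart, at 9038.9 to 11916.2 against 1264.9 to 3187.2 in bone marrow and 1954.2 to 2639.8 in kidney. It rose by 1.88 ± 0.15 over bone marrow (adjusted p = 7.91e-10), and kidney minus heart was -2.29 ± 0.15 (adjusted p = 5.03e-11). Kidney minus bone marrow, -0.41 ± 0.15 (adjusted p = 0.0303), was lost under 7 alternatives. Pgf, the placental growth factor that also binds the Flt1 product, was dim, and its arrays overlapped between all tissues. It was 0.72 ± 0.25 higher in kidney than in bone marrow (adjusted p = 0.0283), a call lost under 5 alternatives.

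Of the co-receptors, Nrp1, which encodes neuropilin-1, was bright on all arrays and rose in kidney by 0.41 ± 0.07 over bone marrow (adjusted p = 5.2e-05) and by 0.23 ± 0.07 over heart (adjusted p = 0.00725). Its probes disagreed for heart minus bone marrow, at 0.17 ± 0.07 (adjusted p = 0.0355) on the brightest, a call lost under 8 alternatives, and -0.83 ± 0.16 (adjusted p = 0.000205) on another, dimmer probe. Nrp2 did not pass in any comparison (differences 0.17 to 0.42, adjusted p = 0.0951 at lowest). Flt4, the lymphatic receptor gene, was detected on 0 arrays.

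The ligands of the Tek product also differed between tissues, and each is described on its own probe because levels of different probes cannot be compared. Angpt2, which encodes a context-dependent antagonist of TIE2, read 5237.6, 4771.3, 6610.9 and 5401.1 in heart, 740.2, 792.2, 1010.9 and 795.1 in kidney and 285, 361.8, 323.3 and 340.1 in bone marrow. The 3 tissues did not overlap, with heart far above the others. It rose by 4.32 ± 0.11 from bone marrow to heart (adjusted p = 1.73e-17) and by 1.36 ± 0.11 to kidney (adjusted p = 2.81e-09), and kidney minus heart was -2.95 ± 0.11 (adjusted p = 8.64e-15). A second tested entry under the same identifier gave 3.03 ± 0.21 for heart minus bone marrow (adjusted p = 1.42e-10) and 0.46 ± 0.21 for kidney minus bone marrow (adjusted p = 0.0893).

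Angpt1, which encodes the agonist of TIE2, was highest in bone marrow. It read 158.2, 210.1, 205.6 and 230.4 in bone marrow, all detected, and was detected on 0 heart and 0 kidney arrays (130.9 to 155.4). It was at least 2.21-fold lower in heart than in bone marrow (adjusted p = 4.72e-07) and at least 2.22-fold lower in kidney (adjusted p = 2.04e-06), and 1.5-fold in both cases without background correction. Angpt1 passed the detection filter through the bone marrow arrays alone, so its p-values serve as description. Angpt4 was likewise lower in heart (-1.70 ± 0.25, adjusted p = 7.65e-06) and kidney (-1.73 ± 0.25, adjusted p = 1.11e-05). Its bone marrow arrays were uneven, with replicate 1 at 241.2 and the others at 547.5 to 684.9, and without that array the differences were -2.02 and -2.05. Ptprb, which encodes the phosphatase that restrains TIE2, was detected on 0 bone marrow arrays and on all heart and kidney arrays. It was at least 3.39-fold higher in heart (adjusted p = 4.72e-11) and at least 2.99-fold higher in kidney (adjusted p = 2.49e-10), or 2.4-fold and 2.3-fold without background correction. Heart and kidney did not differ beyond their spread (-0.18 ± 0.17, adjusted p = 0.447).

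**Figure D3:**
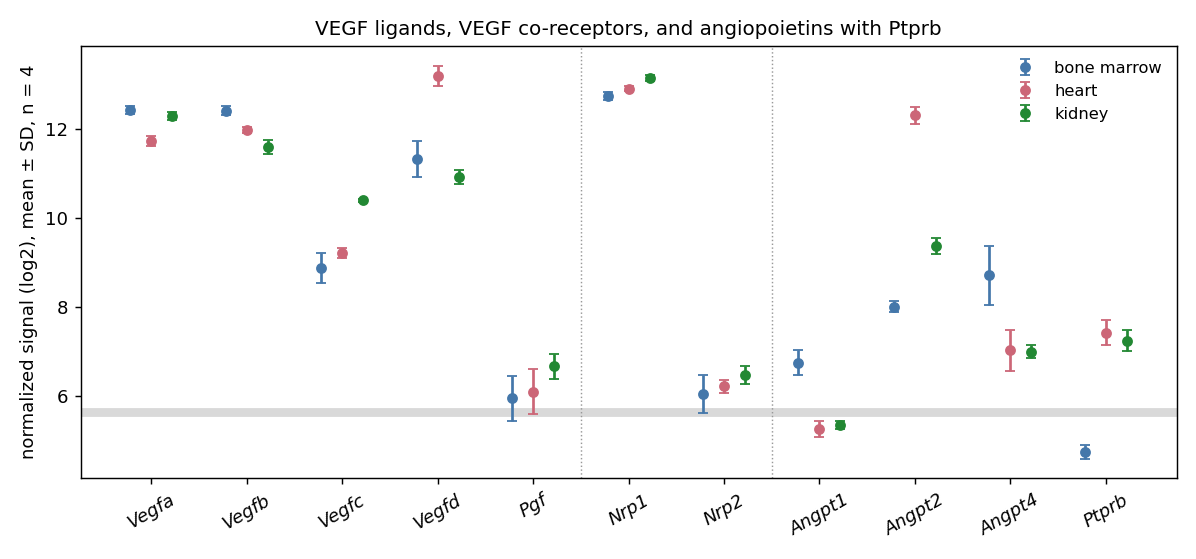
Mean normalized log2 signal ± SD (n = 4) of the tested VEGF ligands, VEGF co-receptors, and angiopoietins with Ptprb, by tissue. The grey band is the detection level; Angpt2 and Vegfd are highest in heart, Vegfc in kidney and Angpt1 in bone marrow, and heights of different genes are not comparable.

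Esm1 is a gene of tip cells, the leading cells of a vessel sprout, and the other genes of that list did not share 1 order. Of 11 listed genes 7 were tested, and 4 were higher and 3 lower in heart than in bone marrow (median 1.11, against -0.034 over all named genes, of which 26.2% were called higher and 29.4% lower). In kidney minus bone marrow 3 were higher and 2 lower (19.6% and 23.8% of all named genes), and in kidney minus heart 2 were higher and 4 lower (24.5% and 23.9%). Beside Angpt2, Adm, which encodes the vessel-active peptide adrenomedullin, followed Esm1 in being highest in heart (2764.4, 2586.5, 3883.9 and 3581.6 raw), and kidney minus heart was -2.72 ± 0.15 (adjusted p = 3.14e-12). It differed in that kidney minus bone marrow was 0.11 ± 0.15 (adjusted p = 0.609). Nid2, which encodes a basement membrane protein, was also highest in heart, with heart minus bone marrow at 2.17 ± 0.16 (adjusted p = 2.33e-10) and kidney minus heart at -1.78 ± 0.16 (adjusted p = 6.68e-09), and its second entry gave 2.45 and -1.59. Pdgfb, which encodes the growth factor with which tip cells recruit pericytes, ran the other way. It was undetected in heart, at least 8.61-fold lower there than in bone marrow (adjusted p = 3.79e-14), and at least 4.37-fold higher in kidney than in heart (adjusted p = 9.69e-12), or 3.9-fold and 2.4-fold without background correction. Kidney minus bone marrow was -0.98 ± 0.15 (adjusted p = 3.05e-05). Rgcc, a cell cycle regulator gene, was highest in bone marrow, with heart at -3.18 ± 0.20 (adjusted p = 2.85e-11) and kidney at -5.24 ± 0.20 (adjusted p = 1.45e-14). Plaur, which encodes the urokinase receptor, rose over bone marrow by 1.46 ± 0.15 in kidney (adjusted p = 1.35e-07) and by 1.11 ± 0.15 in heart (adjusted p = 3.29e-06). Its kidney minus heart difference, 0.35, was not called. Unc5b, a netrin receptor gene, fell in heart (-1.34 ± 0.12, adjusted p = 6.83e-09) and rose in kidney (0.76 ± 0.12, adjusted p = 3.2e-05). Apln and Kcne3 were detected on 0 arrays and Dll4 on 1.

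A wider list of 27 endothelial genes was detected in part. On all 4 arrays of a tissue, 10 genes were detected in heart, 6 in bone marrow and 6 in kidney, and 9, including Cldn5, Icam2, Sele and Clec14a, on 0 arrays of any tissue. Of the 15 tested, 6 were higher and 1 lower in heart than in bone marrow (median 0.20), 1 was higher and 3 lower in kidney than in bone marrow (median -0.05), and 2 were higher and 8 lower in kidney than in heart (median -0.75). Of all named genes 26.2% were higher and 29.4% lower in the first comparison, 19.6% and 23.8% in the second and 24.5% and 23.9% in the last.

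Several of these genes were highest in heart, as Esm1 was, while Adgrf5 was lowest there on its brightest entry. That entry gave -1.05 for heart minus bone marrow and 0.93 for kidney minus heart, both called. Its second tested entry gave 0.35 and 0.25, neither called. Adgrl4, an adhesion receptor gene of endothelium, read 282.4, 234.4, 231.8 and 337.7 in heart and 98.1 to 117.7 on the 8 other arrays, none of which detected it. It was at least 2.87-fold higher in heart than in bone marrow (adjusted p = 7.99e-10) and at least 3-fold higher than in kidney (adjusted p = 8.72e-10), or 2.3-fold and 2.4-fold without background correction. Acvrl1, which encodes the BMP receptor ALK1, was detected on all heart arrays, 2 kidney arrays and 0 bone marrow arrays, and was at least 5-fold higher in heart than in bone marrow (adjusted p = 5.43e-12), or 3.1-fold without background correction. Kidney minus heart was -2.35 ± 0.18 (adjusted p = 1.14e-09). Esam, a junction gene, was detected on the heart arrays alone, at 174.9 to 195.8, and was at least 1.44-fold higher there than in bone marrow (adjusted p = 8.12e-07). Adgrl4 and Esam passed the detection filter through the heart arrays alone, and Acvrl1 would not have passed it without them. The p-values of these genes therefore serve as description.

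Other members of the wider list were detected throughout. Thbd, which encodes thrombomodulin, rose by 1.13 ± 0.10 in heart over bone marrow (adjusted p = 1.14e-08) and did not differ beyond its spread between kidney and bone marrow (-0.16 ± 0.10, adjusted p = 0.246). Selp, which encodes the adhesion molecule P-selectin, read 454.7 to 681.8 in kidney, against 1736.2 to 1988 in heart and 946.5 to 1471.3 in bone marrow. Kidney minus bone marrow was -1.54 ± 0.20 (adjusted p = 2.62e-06). Ramp2, a co-receptor gene for adrenomedullin (-1.09 ± 0.15, adjusted p = 7.16e-06), and Egfl7, a secreted endothelial factor gene (-0.61 ± 0.10, adjusted p = 7.56e-05), were also lower in kidney than in bone marrow. For Egfl7 this holds on the brightest probe alone, as its other tested probes were not called (-0.32, adjusted p = 0.261, and -0.15, adjusted p = 0.595).

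The transcription factors of endothelial cells split into detected and undetected members. Sox18, Tal1 and Lmo2 were detected on 0 arrays and Erg and Sox17 on 1 each. Of 12 listed factors 7 were tested, with 1 higher and 3 lower in heart than in bone marrow, 2 higher and 1 lower in kidney than in bone marrow, and 2 in each direction in kidney minus heart. Counts this small are near the shares of all named genes given above. The largest difference of the list was that of Mef2c, a factor also of muscle and heart development, which was detected on 0 bone marrow arrays and on all heart and kidney arrays. It was at least 14.2-fold higher in heart than in bone marrow (adjusted p = 1.14e-15) and at least 2.45-fold higher in kidney (adjusted p = 1.88e-09), or 6.2-fold and 1.7-fold without background correction, and kidney minus heart was -2.53 ± 0.15 (adjusted p = 1.42e-11). Hhex (at least 1.55-fold, adjusted p = 0.000637) and the ETS factor gene Fli1 (at least 1.41-fold, adjusted p = 0.00503) were dim and lower in heart than in bone marrow, by 1.3-fold and 1.2-fold without background correction. Kidney minus heart was -0.26 ± 0.07 for Gata2 (adjusted p = 0.0052). Ets1, which many cell types express, was bright on all arrays and 0.59 ± 0.10 higher in kidney than in heart (adjusted p = 4.16e-05). Of the lymphatic list Lyve1 was detected on 0 arrays and Prox1 on 2, while Pdpn, which fibroblasts also express, was bright everywhere. It rose by 0.76 ± 0.07 in heart over bone marrow (adjusted p = 1.34e-08), while Stab1, a scavenger receptor gene of sinusoids and macrophages, fell by 0.93 (SE 0.08, adjusted p = 4.71e-09).

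Over all 66 genes of the 7 vascular lists, with the 9 genes left out, 42 were tested and 24 were too seldom detected. In heart minus bone marrow 16 were higher and 12 lower, in kidney minus bone marrow 10 and 12, and in kidney minus heart 10 and 17. The shares called in either direction were 66.7%, 52.4% and 64.3%, beside 26.2% higher and 29.4% lower, 19.6% and 23.8%, and 24.5% and 23.9% of all named genes. The medians were 0.15, -0.01 and -0.10. These counts describe genes that passed the detection filter, some of them through the tissue where they were high.

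Markers of other cells were measured beside these genes. Of 14 blood cell genes, 9 were detected on 0 arrays, with Ptprc, Itgam, Tyrobp and Kit among them, and the summed normalized signal of the list was 638.1 to 690.7 in bone marrow, 670 to 858.1 in heart and 575.9 to 638.4 in kidney. Here and for the lists below, the sum is linear and includes undetected genes. Their background values are part of it. Coro1a and Csf1r were higher in heart than in bone marrow by 0.97 ± 0.19 and 0.77 ± 0.20 (adjusted p = 0.000214 and 0.00307), and the part of the list in the heart values was not tested. Of 6 cardiomyocyte genes none was detected on all 4 arrays of a tissue. Of 11 renal epithelial genes 5 were detected on 0 arrays, with Nphs1, Epcam and Pax8 among them, and the summed signal was 1812 to 2062 in bone marrow, 1523 to 1683 in heart and 1890 to 2002 in kidney. Lrp2, the megalin gene, was undetected in bone marrow and at least 4.28-fold higher in kidney (adjusted p = 1.74e-12) and at least 2.93-fold higher in heart (adjusted p = 2.53e-11), or 2.7-fold and 2.1-fold without background correction. Of the 4 renal epithelial genes tested, 1 was higher and 2 lower in heart than in bone marrow. The 2 lower were Slc12a1 (-1.21) and Slc12a3 (-0.38). In kidney 1 was higher and 0 lower than in bone marrow, and 3 higher and 0 lower than in heart. Of all named genes, 26.2% were higher and 29.4% lower in heart minus bone marrow. These shares were 19.6% and 23.8% in kidney minus bone marrow, and 24.5% and 23.9% in kidney minus heart. The stromal list was not level either, with kidney minus heart at -2.63 ± 0.08 for Thy1 (adjusted p = 3.01e-16) and -1.89 ± 0.17 for Pdgfra (adjusted p = 1.17e-08). These 2 do not stand for the list. Of its 12 tested genes, 3 were higher, 4 lower and 5 not called in that comparison. The shares of all named genes were 24.5% higher and 23.9% lower. The median of the stromal list was 0.14, against 0.022 over all named genes. The mural cell list, for pericytes and vascular smooth muscle, had its highest summed signal in kidney, as Emcn and Flt1 did, but its genes did not share that order. Of 8 tested, 4 were higher and 1 lower in kidney than in bone marrow (median 0.79), 2 were higher and 2 lower in kidney than in heart (median -0.07), and 5 were higher and 1 lower in heart than in bone marrow (median 0.91). Of all named genes, 19.6% were higher and 23.8% lower in the first comparison, and 24.5% and 23.9% in the second. In the last these shares were 26.2% and 29.4%. The medians of all named genes were -0.038, 0.022 and -0.034. The kidney minus heart counts are near the shares of all named genes. The summed signal of the mural list was 5899 to 6896 in kidney, 3048 to 3255 in heart and 1608 to 2658 in bone marrow, with Rgs5 and Abcc9 detected on 0 arrays. The part of this list in the kidney values was not tested. Its leading genes were the smooth muscle genes Myh11 and Des, undetected in bone marrow and at least 12-fold and 27.3-fold higher in kidney (adjusted p = 1.79e-15 and 4.48e-18), or 6-fold and 11-fold without background correction, and Mcam and Cspg4, higher in kidney by 3.29 ± 0.11 and 1.49 ± 0.16 (adjusted p = 1.49e-15 and 2.24e-07). Against heart, Des and Mcam were higher in kidney by 2.63 ± 0.12 and 2.00 ± 0.11 (adjusted p = 3.71e-13 and 3.38e-12), while Anpep was at least 2.47-fold lower (adjusted p = 7.3e-05), or 1.7-fold without background correction. Cspg4 was also lower (-0.41 ± 0.16, adjusted p = 0.0441), a call lost under 9 alternatives, and Myh11 was not called (0.24 ± 0.15, adjusted p = 0.211).

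**Figure D4:**
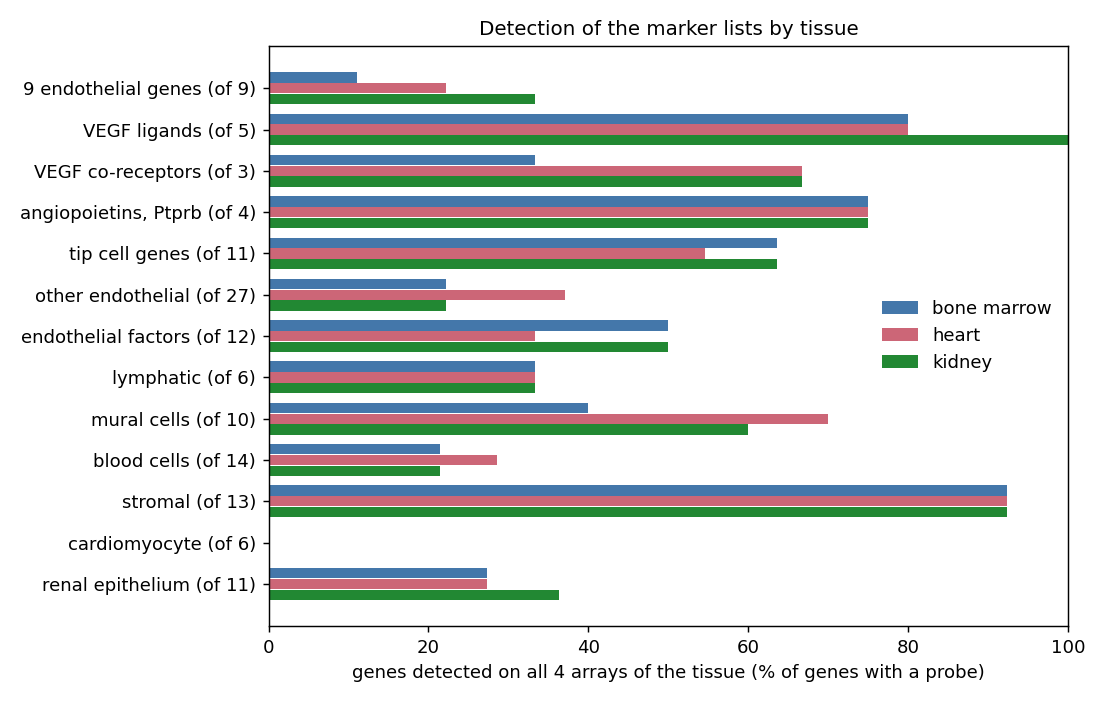
Share of the genes of each list, in percent of those with a named probe, that were detected on all 4 arrays of bone marrow, heart or kidney cells. Stromal genes reach 12 of 13 in each tissue, the 9 endothelial genes 1, 2 and 3, and the cardiomyocyte list 0.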

How the data were processed

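Expression was measured on 12 arrays, 4 per tissue. Per the file headers the deposited raw table holds non-normalized probe intensity, with a lowest value of 72.3 and array means that differ, so no background had been taken off and no scaling applied. Beside it the deposited table holds a detection fraction, headed as a p-value. Because it climbs with brightness, 1 minus it was used as the detection p. Its 45281 entries carry 35746 identifiers, 6798 of them repeated, and repeats were treated as separate probes. The authors' processed intensity, from lumi per the submitters' processing notes, is linear. Its settings are not stated, and its column medians were 18.8 to 19 on every array, and it served as an alternative. Symbols came from the platform annotation (26385 identifiers with 1 symbol), and 127 of 130 listed symbols were matched, 4 through RefSeq synonyms.

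Background correction and quantile normalization used limma 3.58.1 under R 4.3.3 (neqc from detection p-values, offset 16, log2). Entries detected over 0.95 on at least 4 arrays (20649) were fitted with a mean per tissue (lmFit, eBayes with trend), two-sided, with Benjamini-Hochberg adjustment over all of them at 0.05. The brightest entry stood for a gene in the lists (10797 genes). A gene with no detected array in the dimmer tissue, or whose mean there lay below the detection level, is given as a lower bound, the brighter mean against the higher of that level and the dim signal. The fit was tested on simulated data.

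The 9 genes, the lists and the tests were chosen with earlier results of these data known. The naming rule covered the 9 genes, VEGF and angiopoietin genes whatever their values, up to 4 called members of each other list with the largest differences, defining markers as detection counts, and the 3 nearest profiles. Nid2, Adgrf5 and genes named for detection alone were named after their values were seen, as were values of a listed gene in comparisons where it ranked below the leading 4. Same-numbered replicates were checked for pairing: 1 of 12 pairs correlated above 0.1 in their deviations from tissue means (-0.18 to 0.123), so no pairing was used.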

Additional observations from a re-analysis of the deposited data

Results flagged for a closer look

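Among 78 groups of 4 arrays examined (the 15 entries and the tested VEGF and angiopoietin genes), 9 held an array whose gap to its nearest neighbour took up most of the group's range, against about 1 in 20 expected by chance. Values are normalized log2 signals.

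On bone marrow replicate 1, Angpt1 stood at 6.32 against 6.83 to 6.94 on the other bone marrow arrays, Angpt4 at 7.73 against 8.96 to 9.15, and Vegfc at 9.37 against 8.66 to 8.77. This array also had the lowest mean raw brightness (753.7), whose part in these values was not tested. Nrp2 stood at 5.41 on bone marrow replicate 3, undetected there, against 6.19 to 6.31.

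Among the 9 genes, the bright Flt1 entry read 10.77 on kidney replicate 2 against 10.87 to 10.88, a small gap in a tight group. The other 4 concern heart arrays at background: the second Flt1 entry at 4.80 on replicate 2 against 4.52 to 4.53, Pecam1 at 4.77 on replicate 3 against 4.70 to 4.71 and, on another probe, 5.02 on replicate 4 against 4.87 to 4.89, and Vwf at 4.91 on replicate 2 against 4.60 to 4.64. Undetected values of this kind have no order.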

How the results depend on the processing

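No difference checked under the alternatives changed direction while called in either setting. Kidney minus heart for Tek kept its call throughout. Background correction set the size of differences on dim probes. Without it, or with normexp and an offset of 50, kidney minus bone marrow for Emcn was 2.22 and 2.73 and kidney minus heart 2.23 and 2.75; for Flt1 these were 2.45 and 2.59, and 2.36 and 2.49. Esm1 heart minus bone marrow was 4.99 and 5.33, and kidney minus bone marrow 1.11 and 1.32. Tek kidney minus bone marrow passed at -0.23 and -0.32 (adjusted p = 0.042 and 0.0377). Leaving out 1 array at a time gave 0.33 to 0.61 for Tek heart minus bone marrow and -0.66 to -0.41 for kidney minus bone marrow. With 1 probe per gene in the fit, fewer features were tested, and 6042, 4769 and 5290 were called for heart against bone marrow, kidney against bone marrow and kidney against heart, where 10647, 8092 and 9036 probes had been. With probes detected on all 12 arrays, 17 vascular genes were called in heart minus bone marrow, against 28. The replicate block, for numbers that do not pair the samples, gave 10550, 8019 and 8952 called probes, and Tek kidney minus heart stayed at -0.97. Emcn, Esm1 and Tek could not be fitted with probes detected on all 12 arrays. At a detection fraction over 0.99 Cdh5 was detected on 0 arrays, against 2. Signals below a raw brightness of 140.6 to 163.9, depending on the array, bound what could be measured.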
